A study of Caenorhabditis elegans with 12 samples.

Results

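inpp-4B is a Caenorhabditis elegans gene of the phosphoinositide phosphatases, and its transcript was measured here in worms kept with or without lithium. It was taken as every probe of the deposited value table whose gene name, updated through its gene identifier to the WBcel235 annotation, is inpp-4B. That gave 1 probe, number 7395, for 1 of the 8187 named genes of the table. The LiCl group was 6 samples of wild-type N2 hermaphrodites given 10 mM lithium chloride in NGM, the standard nematode growth medium, and the control group was 6 samples on NGM alone. Worms of both groups grew from the egg at 20 °C and were moved to 25 °C for the 48 h of treatment. A sample was a pellet of 50 picked worms, so its RNA comes from all tissues together, and fewer cells of a type cannot be told apart from less RNA per cell. The submitters describe the replicates as separately grown populations. Each sample, labelled with Cy5, was hybridised to an array of its own, together with a common Cy3-labelled reference RNA from N2 cultures that mixed all stages.

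Phosphoinositides are membrane lipids built on inositol, a sugar alcohol whose ring can carry phosphates at several positions. Kinases add these phosphates and phosphatases remove them, and each phosphorylated form recruits its own proteins to a membrane. In mammals, the inositol polyphosphate 4-phosphatases INPP4A and INPP4B, after which inpp-4B is named, remove a phosphate from a lipid product of phosphoinositide 3-kinase, and human INPP4B is known as a tumour suppressor. Lithium is known in mammals to inhibit inositol monophosphatase, an enzyme that recycles inositol, and this is why inositol turnover counts as a classical lithium target. The 4-phosphatases belong to a different enzyme family with a catalytic cysteine.

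In the WBcel235 annotation inpp-4B (CELE_R01H10.7, gene identifier 187517) spans 5115 bases of chromosome III, from 10261763 to 10266877. The adjacent bbs-5 shares 20 bases with its start, and cnk-1 follows 4379 bases after its end. The sources used here give no position or strand for the probe within the gene.

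The inpp-4B transcript had a lower log ratio in LiCl worms than in control worms, and the difference lay just outside the threshold of the test over all probes. The values are deposited log ratios, taken as log2 of sample over reference. Neither the log base nor the direction is stated, and the direction is likely rather than settled, so with the ratio turned every sign below would turn. On the LiCl arrays inpp-4B stood at 0.17, 0.32, 0.36, 0.36, 0.66 and -0.58 in replicates 1 to 6. On the control arrays it stood at 0.59, 1.16, 1.18, 1.22, 0.55 and 1.00 in replicates 1 to 6. Of the LiCl arrays 5 lay below every control array, and replicate 5 lay above control replicates 1 and 5, so the groups overlapped. Of the 36 pairings of a LiCl with a control array, 34 had the lower value in LiCl. LiCl replicate 6 was the only array with a value below 0.

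The mean was 0.22 ± 0.42 (SD, n = 6) in LiCl and 0.95 ± 0.30 (SD, n = 6) in control. The difference, LiCl minus control, was -0.73 ± 0.22 (SE), with a 95% interval from -1.20 to -0.27. In the limma fit over all 22370 probes this gave a p of 0.00491 and, after Benjamini-Hochberg adjustment over all probes, an adjusted p of 0.0567, above the threshold of 0.05. The exact two-sided permutation test of this probe alone, over all 924 assignments of the arrays, gave p = 0.00649, where 0.00216 is the smallest it can give. That p is for a single gene and is not adjusted for the number of probes. The number of arrays limits the precision of the difference.

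**Figure D1:**
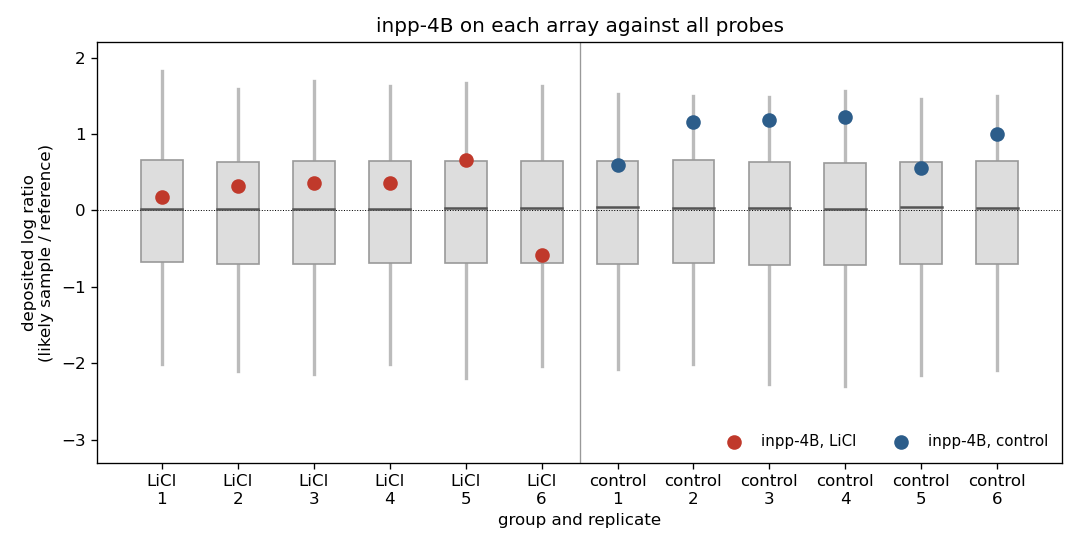
Deposited log ratio of inpp-4B (coloured points, red LiCl, blue control) on each of the 12 arrays, over the distribution of all probes of that array (grey box from the lower to the upper quartile, line at the median, whiskers from the 5th to the 95th percentile). The LiCl points lie between -0.58 and 0.66 and the control points between 0.55 and 1.22, while the boxes barely move.

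The threshold was passed by 1789 probes, 8.0% of those tested, of which 1006 (4.50%) were higher and 783 (3.50%) lower in LiCl. inpp-4B ranked 1937th by p, with 147 uncalled probes ahead of it, and the largest unadjusted p that still passed was 0.00399. Its difference was larger in size than that of 84.6% of all probes, and 6.48% of probes had a more negative one. Its spread within the groups, an SD of 0.37, was below the median of 0.48 over all probes. Of 1118 other probes whose control mean lay within 0.1 of that of inpp-4B, 129 passed the threshold and 77 of these were lower in LiCl. The median difference of the probes at this level, inpp-4B included, was -0.18, against 0.02 over all probes. These probes were chosen by their high control mean, which is also subtracted in the difference, so part of this shift below 0 is built in.

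The place of inpp-4B within each array does not depend on how an array was centred or scaled. It was given as the percentile, the share of the probes with a value on the array that had a lower log ratio. In LiCl the percentile was 56.6, 62.7, 64.2, 64.1, 75.6 and 28.2 in replicates 1 to 6. In control it was 73.0, 89.5, 90.6, 90.3, 71.5 and 86.0 in replicates 1 to 6. On the likely direction of the ratio, the log ratio of inpp-4B thus stood well above the middle of every control array. On 4 of the 6 LiCl arrays it stood only a little above the middle. The percentile ranks ratios to the mixed-stage reference, not the amount of transcript. With the ratio turned, the percentile would run from 24.4 to 71.8 in LiCl and from 9.42 to 28.5 in control, below the middle of every control array. The mean percentile was 58.6 ± 16.1 (SD, n = 6) in LiCl and 83.5 ± 8.85 (SD, n = 6) in control, a difference of -24.9 (exact permutation test, p = 0.00649). Without LiCl replicate 6 the difference was -18.8 (exact permutation test, p = 0.013). Both p-values are for a single gene and are not adjusted for the number of probes.

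**Figure D2:**
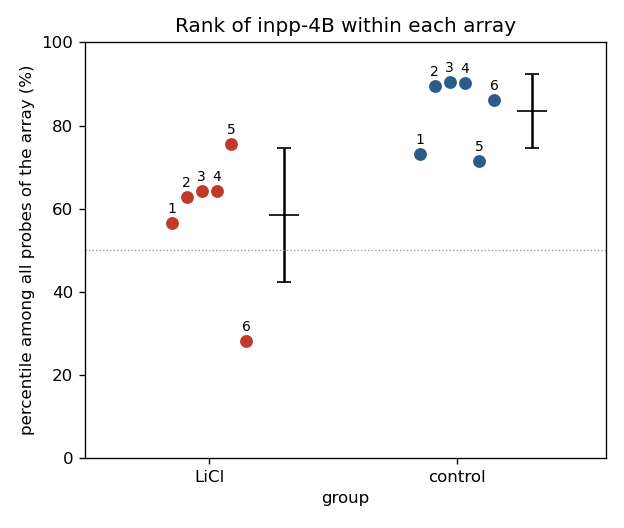
Percentile of the inpp-4B probe among all probes with a value on the same array, by group, with replicate numbers above the points and the mean ± SD (n = 6) beside them. The LiCl points spread from 28.2 to 75.6 and the control points from 71.5 to 90.6, with LiCl replicate 6 lowest.

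The number of probes lacking a value on an array moved with inpp-4B inside the control group. LiCl arrays lacked 25 to 38 probes, apart from replicate 6, which lacked 150, and control arrays lacked 16 to 80. The 3 arrays that lacked over 50 probes, LiCl replicate 6 and control replicates 1 and 5, were the lowest in inpp-4B in their groups. Over the 6 control arrays Pearson's r was -0.93 (exact permutation test, p = 0.00833, adjusted p = 0.025 over 6 relations) and Spearman's rho was -0.94 (exact permutation test, p = 0.0167, adjusted p = 0.05). Without the control arrays farthest from the median count, replicates 4 and 5, r was -0.88 over 4 arrays. Over all probes measured on every control array, 1.02% had a correlation of larger size.

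Over the 6 LiCl arrays r was also -0.93 (exact permutation test, p = 0.136, adjusted p = 0.272), but rho was -0.43 (exact permutation test, p = 0.419, adjusted p = 0.803). Without the LiCl arrays farthest from the median count, replicates 4 and 6, r was -0.48 over 4 arrays. Without replicate 6 alone it was -0.26 over 5 arrays, and without any other single LiCl array it lay between -0.97 and -0.93, so the LiCl relation rests on replicate 6. The relation was noticed in these values before it was tested. The median number of probes lacking a value was 30 in LiCl and 37.5 in control.

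With the log2 of that number as a covariate for all probes, a fit chosen after seeing the data, the inpp-4B difference was -0.69 ± 0.14 (SE, adjusted p = 0.0127), and 1668 probes passed. The cut at 50 probes lacking a value was also chosen after seeing the data. On the 9 arrays within it the difference was -0.77 ± 0.17 (SE, adjusted p = 0.0391), and 787 probes passed. The difference was thus of similar size with and without the arrays left out, while its error and its side of the threshold moved. The cut left out the arrays lowest in inpp-4B in each group, and the covariate was taken up because it moved with inpp-4B. The smaller errors and adjusted p-values of these fits are therefore no separate support for the difference.

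**Figure D3:**
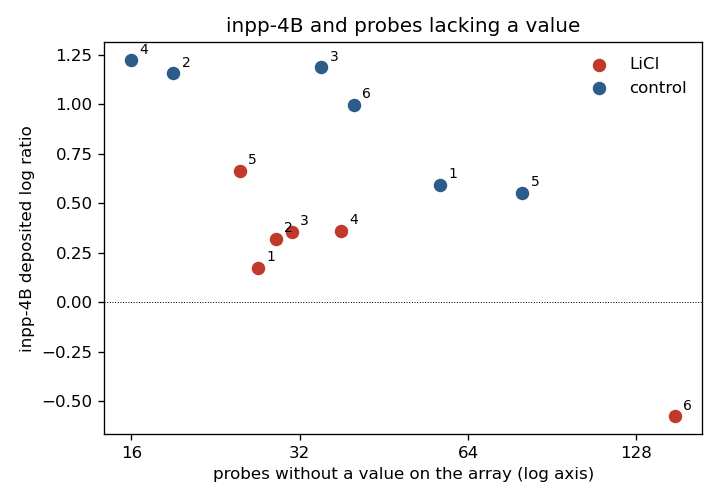
Deposited log ratio of inpp-4B against the number of probes without a value on the same array (logarithmic axis), 1 point per array with its replicate number, red LiCl and blue control. Control points go down from 1.22 at 16 probes to 0.55 at 80, and LiCl replicate 6, at 150 probes, stands alone at -0.58.

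Whether inpp-4B passed the threshold turned on small choices, and its direction did not. In 20 further fits of the same data, the difference lay between -0.82 and -0.58, always lower in LiCl, and the adjusted p between 0.0462 and 0.117. The call was made in 2 of the 20, with arrays weighted by their quality (adjusted p = 0.0491) and without LiCl replicate 5 (adjusted p = 0.0462). Leaving out LiCl replicate 6, the lowest array, gave -0.58 ± 0.18 (SE, adjusted p = 0.0797). The highest adjusted p, 0.117, came without control replicate 4, the highest control array.

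**Figure D4:**
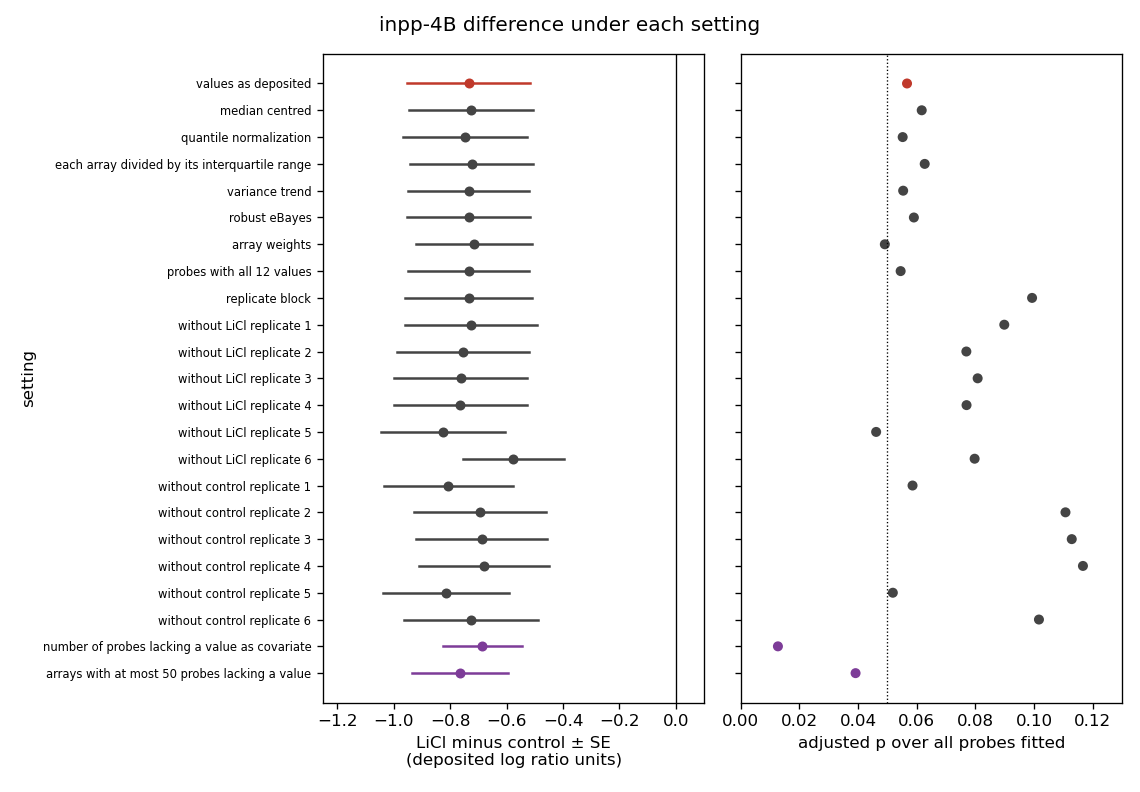
Difference of inpp-4B, LiCl minus control, with its standard error (left) and its adjusted p (right, dotted line at 0.05) under each setting. Red is the fit on the values as deposited, grey the other fits listed for these data and purple those chosen after seeing the data. All differences lie below 0, and 4 settings, 2 grey and 2 purple, have an adjusted p under 0.05.

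Other genes of inositol and phosphoinositide metabolism were chosen by name, and 6 of the 45 genes of the annotation that fit the list had a named probe, inpp-4B included. The others, among them the inositol monophosphatase gene ttx-7, were not analysed here. None of the 6 passed the threshold, against 8.0% of all probes, and 3 had an unadjusted limma p under 0.05, against 22.8% of all probes. The difference was below 0 for 5 of the 6, with a median of -0.26, whereas 48.3% of all probes lay below 0 and their median was 0.02. Without inpp-4B, 4 of 5 lay below 0, with a median of -0.20.

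pifk-1A, named for the phosphatidylinositol 4-kinases that start the synthesis of the more highly phosphorylated lipids, came nearest to the threshold. It stood at -0.88, -0.70, -0.35, -0.33, -0.42 and -0.27 on LiCl arrays 1 to 6. On control arrays 1 to 6 it stood at -0.19, 0.08, 0.05, 0.04, 0.29 and -0.09. Every LiCl array lay below every control array. The difference was -0.52 ± 0.15 (SE, adjusted p = 0.052), and it passed when only the probes with a value on all arrays were tested (adjusted p = 0.0494). It did not pass in any fit that left out 1 array (adjusted p of 0.0550 to 0.0997). It also did not pass with arrays weighted by their quality (adjusted p = 0.0685) or with the replicate number as a block (adjusted p = 0.0788). On the arrays that lacked at most 50 probes the adjusted p was 0.126. LiCl replicate 6, the lowest LiCl array in inpp-4B, was the highest LiCl array in pifk-1A.

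ipmk-1, named for inositol polyphosphate multikinase, which phosphorylates soluble inositol phosphates, had values between -0.53 and -0.04 in LiCl (median -0.21) and between -0.01 and 0.28 in control (median 0.05). Here too the groups did not overlap, as for 6.61% of all probes in either direction and 3.00% with LiCl lower. The difference was -0.32 ± 0.13 (SE, adjusted p = 0.155). Of the 5 other inositol genes ipmk-1 followed inpp-4B most closely, with r = 0.83 over the 12 arrays and 0.60 after each group's mean was subtracted. In both genes LiCl replicate 6 was the lowest LiCl array and control replicate 4 the highest control array, so these arrays can carry much of that r. LiCl replicate 5, highest of its group in inpp-4B (0.66), was lower in ipmk-1 (-0.30) than every other LiCl array except replicate 6.

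figo-1, named for the lipid phosphatase FIG4, had a mean of -0.14 ± 0.24 (SD, n = 6) in LiCl and 0.06 ± 0.31 (SD, n = 6) in control. mtm-10, of the myotubularin family of phosphoinositide phosphatases and related inactive proteins, had a mean of 0.34 ± 0.88 (SD, n = 6) in LiCl and 0.52 ± 0.56 (SD, n = 6) in control. sac-2, named for the Sac domain of lipid phosphatases, had a mean of 0.46 ± 0.40 (SD, n = 6) in LiCl and 0.43 ± 0.30 (SD, n = 6) in control. For these 3 genes the 95% intervals of the difference included 0, from -0.59 to 0.18 for figo-1, from -1.03 to 0.67 for mtm-10 and from -0.43 to 0.48 for sac-2. The intervals of mtm-10 and figo-1 leave room for a decrease of more than 0.5.

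The measured genes named for phosphatases or their families, inpp-4B, figo-1, mtm-10 and sac-2, therefore had differences from -0.73 to 0.03. Those named for kinases, pifk-1A and ipmk-1, had differences of -0.52 and -0.32. A second list held 10 genes of GPI anchor synthesis, which use phosphatidylinositol as a building block. None of these passed the threshold, 4 of 10 had a difference below 0, and their median was 0.02. The mean of these 10 genes on an array lay between 0.51 and 0.65 in LiCl and between 0.51 and 0.64 in control.

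**Figure D5:**
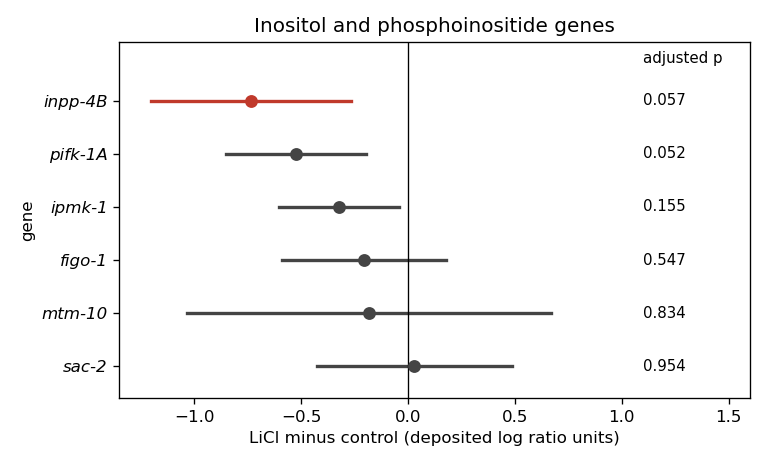
Difference between groups, LiCl minus control, for the 6 inositol and phosphoinositide genes with a named probe, with 95% intervals from the limma fit (n = 6 arrays per group) and the adjusted p over all probes. The intervals of inpp-4B, pifk-1A and ipmk-1 lie below 0 and the others include it.

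The germline and maternal markers were listed with earlier results of these data known, so their shares are no independent test. Of 26 germline genes of the annotation that fit the list, 6 had a named probe. Of these 6 measured genes, 3 passed the threshold with lower values in LiCl, against 3.50% of all probes called lower. These were the synaptonemal complex gene syp-6 (-0.77, adjusted p = 0.00931), the germ granule gene mip-1 (-0.72, adjusted p = 0.0134) and enri-2 (-0.96, adjusted p = 0.0404). The difference was below 0 for all 6, against 48.3% of all probes, and the other 3 did not pass. The mean of these 6 genes on an array lay between 0.40 and 0.87 in LiCl and between 0.98 and 1.35 in control, without overlap. Of 5 probes of the maternal genes memi-1, memi-2 and memi-3, 1 passed, a probe of memi-2 (-0.63, adjusted p = 0.0148), against the same 3.50% called lower, and the mean lay between 0.72 and 1.35 in LiCl and between 1.22 and 1.80 in control. The call of enri-2 was lost without LiCl replicate 4, 5 or 6 or any 1 control array, with an adjusted p of 0.0538 to 0.0904. On the 9 arrays that lacked at most 50 probes none of the 3 germline calls was made, with an adjusted p of 0.0585 for syp-6, 0.087 for mip-1 and 0.119 for enri-2. The part of germline content in the inpp-4B difference was not tested.

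Of the other marker lists, 10 sperm genes had 1 member higher and 1 lower, 24 neuronal genes 1 higher, and 3 pharyngeal genes 1 higher and 1 lower, where 4.50% of all probes were called higher and 3.50% lower. The neuronal share, 4.17% called, was near that background. Of these 5 calls, those of spe-51, spe-57, nlp-55 and phat-8 were lost in 8 to 9 of the 12 fits that left out 1 array, with adjusted p-values of 0.0519 to 0.0841. On the 9 arrays that lacked at most 50 probes none of the 5 calls was made (adjusted p of 0.0536 to 0.21). The mean of the neuronal list lay between -1.27 and -0.92 in LiCl and between -1.30 and -1.07 in control. The mean of the sperm list lay between 0.11 and 1.26 in LiCl and between 0.09 and 1.09 in control. No probe was named for the yolk, intestine, body muscle and cuticle lists, so the tissue make-up could be checked only in part.

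The measured genes nearest to inpp-4B on chromosome III had other profiles. R01H10.4, which ends 4541 bases before it, had values between -1.43 and -0.25 in LiCl and between -0.75 and -0.28 in control, a difference of -0.27 ± 0.21 (SE, adjusted p = 0.503). K10G9.2, which starts 19045 bases after it, had values between 0.15 and 0.75 in LiCl and between -0.40 and 0.34 in control, and its difference was opposite in sign, 0.57 ± 0.17 (SE, adjusted p = 0.0572). Over the 12 arrays r with inpp-4B was 0.13 for R01H10.4 and -0.73 for K10G9.2. The adjacent bbs-5 and cnk-1 were not analysed here.

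Among 8525 named probes with a value on all arrays, the profile most like that of inpp-4B over the 12 arrays was that of W01B6.4, with a Pearson correlation of 0.95. JC8.7 (r = 0.90), F44F4.9 (r = 0.89), F43H9.3 (r = 0.88) and selt-1.2 (r = 0.87), named for selenoprotein T, came next. The correlations of all 8525 probes had a 5th percentile of -0.66 and a 95th percentile of 0.61, and they include the shared difference between the groups. W01B6.4 had values between -0.84 and 0.62 in LiCl, lowest in replicate 6 as in inpp-4B, and between 0.45 and 1.54 in control, lowest in replicate 5. All 5 had a difference below 0, which the way they were picked favours. Of them selt-1.2 alone passed the threshold (-1.45, adjusted p = 0.0381), against 3.50% of all probes called lower. That call was lost without LiCl replicate 1, 2, 4 or 6 or control replicate 1, 2, 3 or 4, with an adjusted p of 0.0563 to 0.0835. It was also lost with the replicate number as a block (adjusted p = 0.0597) and on the 9 arrays that lacked at most 50 probes (adjusted p = 0.087).

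The most opposite profiles were those of F31E9.6, the carboxylesterase family gene cest-10, Y53F4B.12, rml-5 and clik-2, with r from -0.89 to -0.87. All 5 had a difference above 0, which the way they were picked favours. Y53F4B.12 (1.51 ± 0.23, SE, adjusted p = 0.00191) and rml-5 (1.19 ± 0.17, SE, adjusted p = 0.00122) passed the threshold, higher in LiCl. Of all probes 4.50% were called higher. In both genes the groups did not overlap, as for 6.61% of all probes in either direction. The way the genes were picked favours these results too. cest-10 had a mean of 0.97 ± 0.73 (SD, n = 6) in LiCl and 0.23 ± 0.34 (SD, n = 6) in control and did not pass.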

How the data were processed

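RNA of 12 samples was measured on 2-colour arrays, 1 array per sample. The deposited table holds a processed log ratio per probe and array, taken as log2. Its scanner, software, normalization, spot filter and log base are not stated in any source used here. Array medians lay between 0.018 and 0.044 and interquartile ranges between 1.33 and 1.34, so the arrays may have been scaled to a common spread by the authors, and differences are not fold changes. Of 22370 probes, 8757 carried 1 gene name from the platform annotation, 13613 carried none and 0 carried several; 8724 named probes were matched to RefSeq WBcel235 by gene identifier. Groups came from the sample titles.

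The group term was fitted for all probes in R 4.3.3 by limma 3.58.1, with lmFit followed by eBayes, on the values as deposited and with at least 4 arrays per group. Tests were two-sided, with Benjamini-Hochberg adjustment; the code was tested on simulated arrays. Exact permutation tests used scipy 1.17.1. Alternatives were other normalizations, variance models, weights, filters, a replicate block, another threshold and leaving out arrays. The gene and the lists were chosen with earlier results of these data known. Named were inpp-4B, all measured inositol genes, the 5 genes most like and most unlike it (and most like within groups) by Pearson correlation, the nearest measured neighbours, and up to 4 genes per marker list by smallest p. The annotation table holds no gene descriptions, so lists rest on symbols. Same-numbered arrays were not treated as pairs, since their deviations from the group means correlated above 0.1 in 1 of 6 pairs.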

Additional observations from a re-analysis of the deposited data

Results flagged for a closer look

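A single array stood apart from the other 5 of its group, by Dixon's gap test, in 8 of 90 comparisons of this kind; about 1 in 20, here 4.5, would stand apart by chance. inpp-4B itself was not among them: the gap below LiCl replicate 6 took up 0.604 of the range of the LiCl group, against a critical value of 0.625. LiCl replicate 6 had no value for 150 probes, while the remaining arrays of its group lacked 25 to 38. The same array was lowest in W01B6.4 (-0.845, others from 0.16 to 0.62), K03D3.5 (-1.85, others from 0.35 to 0.92), C28D4.7 (-4.96, others from -0.41 to 0.98) and F45C12.9 (-4.41, others from -0.62 to 0.28). These 4 genes had been picked for profiles like that of inpp-4B, in which this array is also lowest, so they are not separate evidence about it. Control replicate 4 was high in ipmk-1 (0.282, others from -0.01 to 0.08), control replicate 1 was high in rml-5 (-1.77, others from -2.36 to -2.15), and control replicate 2 was high in mip-1 (0.992, others from 0.81 to 0.88).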

How the results depend on the processing

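The inpp-4B difference was below 0 in all planned and added fits that gave it a value. It passed the threshold with array weights (-0.72, adjusted p = 0.0491) and, by construction, at an adjusted p under 0.10 (-0.73). It also passed in the fits chosen after seeing these values. These had the number of probes lacking a value as covariate (-0.69) or kept the arrays with at most 50 such probes (-0.77). The exact test of this probe alone, unadjusted, is past 0.05 as well. Leaving out 1 array gave -0.82 to -0.58, passing only without LiCl replicate 5. Its overall spread lay below the median, so the filter on spread removed it. With the replicate block the difference was -0.73 (adjusted p = 0.0993) and 1393 probes passed; the samples share only a number. The percentile difference kept its direction among named probes (-26.1) and without any 1 array (-28.3 to -18.8). Its p in the exact permutation test stayed under 0.05 in these. That p is for a single gene and is not adjusted for the number of probes, so it does not bear on the adjusted threshold. The 1789 changed probes, 1006 of them higher and 783 lower, became 622, 432 and 190 with the probes of lower spread removed, 2836, 1554 and 1282 at an adjusted p under 0.10, and 787, 501 and 286 on the arrays with at most 50 probes lacking a value. Without any 1 array the calls numbered 1181 to 1600, of which 697 to 976 were higher and 479 to 681 were lower. The lowest came without control replicate 4 (1181, 484 of them lower) and control replicate 6 (479 lower). The count of changed inositol genes, 0, was 1 with array weights, with the covariate, on the arrays with at most 50 probes lacking a value and without LiCl replicate 5 (inpp-4B in each), 1 with only fully measured probes (pifk-1A), 2 at an adjusted p under 0.10, and 0 to 1 without 1 array. Of the 5 genes most like inpp-4B, 1 remained after group means were subtracted and 2 by Spearman correlation. sac-2 changed sign without 1 array (-0.056 to 0.171), mtm-10 on the arrays with at most 50 probes lacking a value (0.019), and F45C12.9 without 1 array (-0.80 to 0.14, above 0 without LiCl replicate 6); none of these was called. Where no construction shows it, the cause was not tested.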

Other observations

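Within the control group the array median also ran against inpp-4B. The control arrays had the same order by median as by number of probes lacking a value, so this is not a separate relation. Over the 6 control arrays, whose medians lay between 0.026 and 0.044, Pearson's r was -0.97 (exact permutation test, p = 0.00833, adjusted p = 0.025 over 6 relations) and Spearman's rho was -0.94 (exact permutation test, p = 0.0167, adjusted p = 0.05). Without control replicates 1 and 5, r was -0.92 over 4 arrays. Over all probes measured on every control array, 0.145% had a correlation of larger size. In LiCl, where the medians lay between 0.018 and 0.034, r was -0.41 (exact permutation test, p = 0.55, adjusted p = 0.725) and rho was -0.14 (exact permutation test, p = 0.803, adjusted p = 0.803). The interquartile range of the array had an r of -0.15 in LiCl (exact permutation test, p = 0.725) and 0.32 in control (exact permutation test, p = 0.692) with inpp-4B.

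After each group's mean was subtracted, the profiles most like that of inpp-4B were those of K03D3.5 (r = 0.95), C28D4.7 (r = 0.93), W01B6.4 (r = 0.91), F45C12.9 (r = 0.89) and Y71H2B.2 (r = 0.88). None of these 5 passed the threshold between the groups. K03D3.5 had a mean of 0.25 ± 1.05 (SD, n = 6) in LiCl and -0.34 ± 0.75 (SD, n = 6) in control. Its difference was thus opposite in sign to that of inpp-4B, although r within the groups was 0.95. LiCl replicate 6 stood apart in K03D3.5 (-1.85, others from 0.35 to 0.92) and was also lowest in inpp-4B, so this array can carry much of that r.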
